A study of Mus musculus with 9 samples.

Results

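The genes described here are 10 killer lectin-like receptor genes of mouse CD8+ T cells: Klrd1, Klrc1, Klrc2, Klrc3, Klre1, Klrk1, Klrg1, Klrb1c, Klra7 and Klra9. They were chosen by name from the 30 genes whose symbol begins with Klr, among 55471 gene identifiers in the count files. Earlier results of these data were known when they were chosen. All 10 passed the filter on low counts, which left 14918 genes for testing. The cells carried OT-I, a transgenic T cell receptor for an ovalbumin peptide. The control libraries (n = 4) came from Bdh1-WT cells given an shRNA against firefly luciferase (shCtrl), and the DKO libraries (n = 5) from Bdh1-KO cells given an shRNA against Oxct1 (shOxct1). Bdh1 and Oxct1 encode enzymes of ketone body use. In both groups, naive cells were stimulated with antibodies to CD3ε and CD28 in the presence of IL-2, transduced, sorted for the Ametrine reporter and transferred into CD45.1 C57BL/6 mice. The mice were infected with LmOVA, which carries ovalbumin, and Ametrine+ CD45.2 cells were sorted on day 7 of the infection. Oxct1 was thus knocked down rather than deleted, and neither age nor sex of the animals is stated. Nothing in the labels says whether replicates came from separate mice, so p-values measure the spread between these libraries, which may be technical. The comparison asks how Bdh1 knockout and Oxct1 knockdown together change the receptors that an effector CD8+ T cell transcribes. Every DKO library carried both, so the effects of the knockout and the knockdown cannot be told apart.

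Killer lectin-like receptors are C-type lectin-like membrane proteins best known from natural killer (NK) cells, and CD8+ T cells acquire several of them after activation. Some carry inhibitory motifs that recruit phosphatases, and others signal through small adaptor proteins. Klrd1 encodes CD94, which pairs with a protein of the NKG2 family: NKG2A (Klrc1) makes the pair inhibitory, and NKG2C (Klrc2) or NKG2E (Klrc3) makes it activating. These pairs bind Qa-1, the product of H2-T23. Klrk1 encodes NKG2D, which works as a costimulatory receptor on CD8+ T cells, and Klrg1 encodes an inhibitory cadherin receptor that marks terminal effector cells. Except for Klrg1, the members lie within the NK gene complex on chromosome 6.

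The 3 Klrc genes are close relatives, and their promoters are printed first because the levels of the genes differ widely. RefSeq promoters (GRCm38.p6, 250 bases before to 50 bases after the start) were found for 8 of the 10 members. The promoters of Klrc2 (chr6:129660507-129660806, minus strand) and Klrc3 (chr6:129643239-129643538, minus strand) had 296 of 299 aligned bases in common, with 3 mismatches and 1 gap column. Capitals in these 2 sequences mark the bases that differ within the alignment, the unpaired base of Klrc3 included, and the first base of Klrc2 lies outside it.
Klrc2: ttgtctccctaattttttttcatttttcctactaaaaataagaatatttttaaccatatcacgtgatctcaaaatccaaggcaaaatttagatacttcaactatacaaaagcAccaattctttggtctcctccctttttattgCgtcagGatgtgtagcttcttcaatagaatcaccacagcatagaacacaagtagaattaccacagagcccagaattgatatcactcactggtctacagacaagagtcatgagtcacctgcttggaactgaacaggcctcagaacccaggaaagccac
Klrc3: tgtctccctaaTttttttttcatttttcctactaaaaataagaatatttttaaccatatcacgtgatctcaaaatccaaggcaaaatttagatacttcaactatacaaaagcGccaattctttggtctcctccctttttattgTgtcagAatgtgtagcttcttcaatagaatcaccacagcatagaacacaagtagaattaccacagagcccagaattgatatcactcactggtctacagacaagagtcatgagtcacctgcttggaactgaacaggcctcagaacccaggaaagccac
The promoters of Klrc1 (chr6:129678924-129679223, minus strand) and of Klre1 (chr6:129577963-129578262, plus strand), the member with the largest decrease, follow. Capitals in these 2 mark the core letters TGTGGT of a RUNX site, on either strand.
Klrc1: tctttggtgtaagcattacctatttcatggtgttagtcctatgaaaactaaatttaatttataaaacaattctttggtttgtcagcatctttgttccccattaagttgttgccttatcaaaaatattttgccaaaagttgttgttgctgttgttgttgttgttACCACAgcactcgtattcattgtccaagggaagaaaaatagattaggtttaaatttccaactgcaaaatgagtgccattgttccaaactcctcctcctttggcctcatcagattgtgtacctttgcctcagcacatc
Klre1: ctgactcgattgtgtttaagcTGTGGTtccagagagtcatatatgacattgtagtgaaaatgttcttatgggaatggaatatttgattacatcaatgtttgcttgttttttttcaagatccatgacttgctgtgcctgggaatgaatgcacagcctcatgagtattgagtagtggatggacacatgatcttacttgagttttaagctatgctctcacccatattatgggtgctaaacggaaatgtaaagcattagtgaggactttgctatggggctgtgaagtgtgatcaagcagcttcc
The longest run of identical bases that the Klrc1 promoter shared with that of Klrc2 or Klrc3 was 12 bases, against 150 bases between Klrc2 and Klrc3. TGTGGT was found on either strand in the promoters of 6 of the 8 members (Klrb1c, Klrc1, Klrc2, Klrc3, Klre1 and Klrk1) and in 16.8% of 32851 promoters of the same length. The Klrc2 and Klrc3 matches lie in shared sequence, and Klre1 had the match in 1 of its 2 listed promoters. Klrc2 and Klra7 also had 2 listed promoters. Members were counted as genes with a match in any listed promoter, whereas the share of all counts single promoters, so the units differ. The T-box letters TCACACCT were in 0 of the 8 members' promoters and in 1.28% of all. The AP-1 letters TGANTCA were in those of Klrc2, Klrc3 and Klrk1 and in 7.81% of all, and the ETS letters GGAAGT were in that of Klrb1c and in 23.8% of all. Both strands were searched, and matches of different motifs did not overlap.

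Libraries held 45205993 to 59853080 counts in genes. In control replicate 1, 16.7% of reads were unmapped, the highest share of any library. This library lay at -79.1 on the first principal component of log2 CPM (CPM is a gene's count scaled to a common library size, which makes libraries comparable), where the others ranged from -7.25 to 23.5. Control replicate 3 lay at -70.2 on the second component, where the others ranged from -5.59 to 20.2, and calls below that change when 1 library is left out are given with and without it. Means are given ± SD over the 4 control and the 5 DKO libraries, control first. Oxct1 was at 63.2 ± 5.73 against 5.16 ± 0.370 CPM, and Bdh1 at 30.5 ± 4.16 against 10.6 ± 1.24 CPM. The 8 T cell markers summed to 7086 to 9617 CPM in control libraries and 6573 to 7097 CPM in DKO libraries. One of them passed the threshold: Cd8b1 fell from 2247 ± 280 to 1702 ± 129 CPM (adjusted p = 0.0428, edgeR). This call held without control replicate 1 (0.0189) and was lost without any 1 of the other 8 libraries (0.0520 to 0.127). The NK cell markers summed to 27.2 to 43.5 CPM in control and 19.4 to 31.6 CPM in DKO, with 6 of 10 genes above 1 CPM. Log2 fold changes of 7 of the 8 NK genes tested were below 0 (median -0.37), and 0 passed the threshold in edgeR. Of the defining NK genes, Ncr1 had 14 counts in all in control and 15 in all in DKO. The myeloid markers summed to 249 to 288 and 200 to 214 CPM, with 7 of 8 above 1 CPM. S100a8 had 0 counts in control and 31 counts in DKO. Of the 7 myeloid genes tested, 5 log2 fold changes were below 0, and Cd68 (29.2 ± 4.98 against 16.8 ± 2.51 CPM) and Ctss (81.2 ± 8.22 against 51.3 ± 5.83 CPM) fell (adjusted p = 0.0138 and 0.00734, edgeR; both held without any 1 library). Itgam also passed downward in edgeR without control replicate 1 (0.00323). With all libraries, Itgam passed in DESeq2 (0.0447), in limma-voom (0.0051) and with 1 surrogate variable in the model (0.00554). Lyz2 lay the other way, at 2.43 ± 1.08 against 5.85 ± 4.39 CPM. Lyz2 did not pass in edgeR (adjusted p = 0.206) but passed upward in DESeq2 (0.0476). B cell markers summed to 179 to 264 and 187 to 209 CPM, with 2 of 6 above 1 CPM and Pax5 at 0. CD4 T cell markers summed to 30.7 to 39.3 and 34.6 to 46.6 CPM, with 2 of 4 above 1 CPM and Cd4 itself at 0.172 and 0.344 CPM. Markers of innate-like T and innate lymphoid cells summed to 424 to 570 and 518 to 588 CPM, with 3 of 5 above 1 CPM. The part of the T cell, NK cell and myeloid markers' shifts in the results below was not tested. In bulk RNA, fewer cells of a type and less RNA per cell cannot be told apart.

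Of the 10 members, Klrd1 and Klre1 fell in DKO, and none rose past the threshold. Klrc1, the inhibitory partner of CD94, stayed within a narrow interval of its control level. Of all 14918 genes tested, 2.83% passed an adjusted p of 0.05 (1.51% lower and 1.32% higher in DKO; edgeR's quasi-likelihood test), against these 2 of 10 members. The members were chosen with earlier results of these data known, so the shares here are a description and no test of the members as a set. The members' log2 fold changes had a median of -0.23, with 8 below 0, where all genes tested had a median of -0.01 and 51.4% below 0. A lean downward was also seen in the T cell markers (median -0.19, 7 of 8 below 0) and the NK cell markers (-0.37, 7 of 8 tested). The NK list is not separate from the receptor family. It holds Klra8 (log2 fold change -0.26), Klra4 (-0.21), Klri2 (-0.67) and the untested Klri1, all also counted among the other Klr genes. Its gene Tyrobp is also on the adaptor list. The B cell markers (median -0.12, 3 of 4 tested below 0) and the myeloid markers (-0.08, 5 of 7 tested) also leaned downward. Markers of innate-like T and innate lymphoid cells (0.17, 2 of 5 below 0) and of CD4 T cells (0.58, 1 of 4) lay the other way. Of the CD4 genes, Cd4 (0.172 and 0.344 CPM) and Foxp3 (0.137 and 0.212 CPM, control and DKO) were near the lower end of detection. Whether these shifts are related to those of the members was not tested. An unadjusted p under 0.05 was seen for 5 members (Klrd1, Klre1, Klrk1, Klrg1 and Klra9) and for 16% of all genes.

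**Figure D1:**
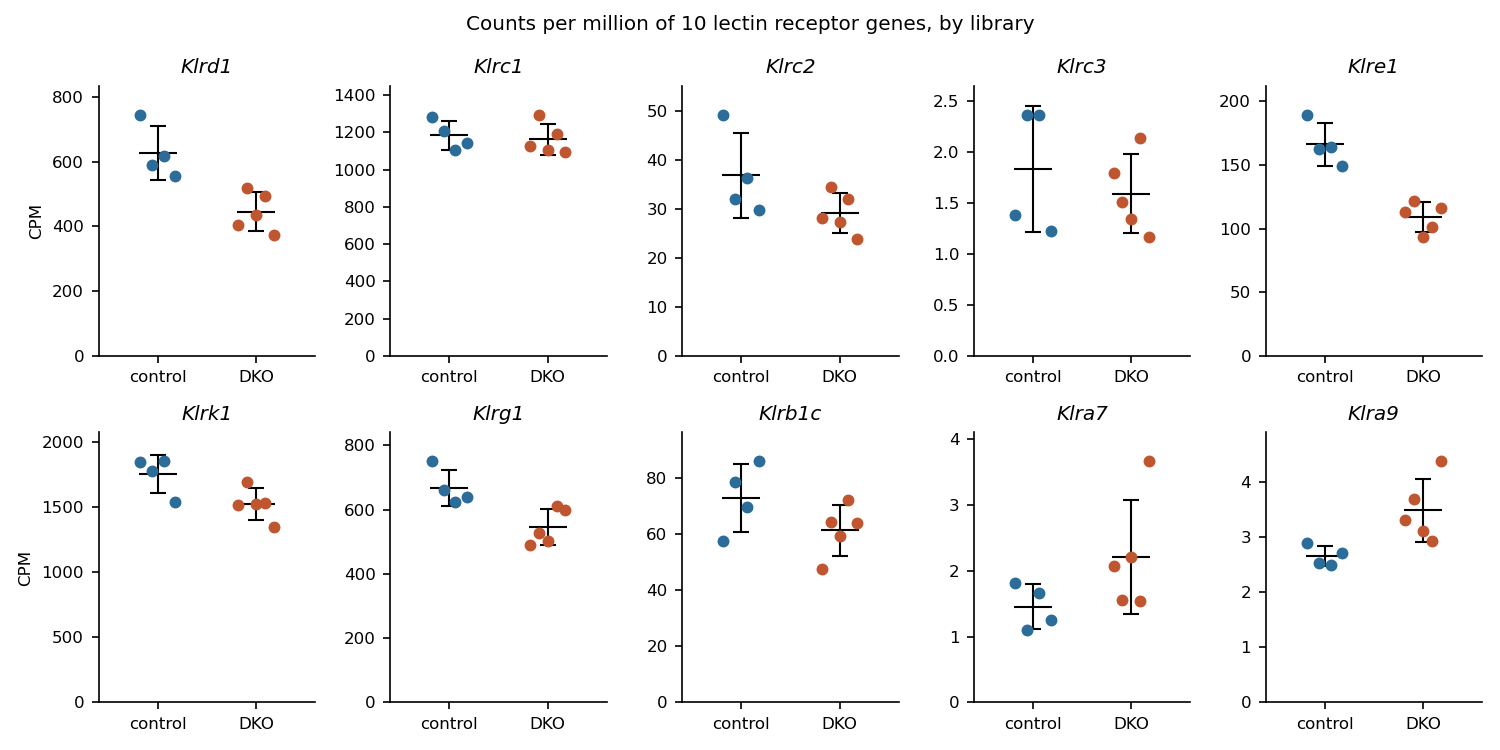
CPM (vertical axes from 0) of the 10 receptor genes in each control library (blue, n = 4) and each DKO library (orange, n = 5), with the mean and SD in black. The points of Klrd1 and Klre1 do not overlap between groups, while those of Klrc1 span 1104 to 1281 in control and 1096 to 1293 in DKO.

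Klrd1 (ENSMUSG00000030165.16, plus strand, chromosome 6, 129591782 to 129598775 in GRCm38), the CD94 chain that all NKG2A, C and E receptors need, was at 744, 590.4, 616 and 555 CPM in control replicates 1 to 4. In DKO replicates 1 to 5 it was at 405, 519, 436, 492 and 374 CPM. Every DKO library lay below every control library, and control replicate 1 was the highest. The DKO level was 0.71 times control (95% interval 0.60 to 0.85). On the log2 scale the change was -0.49 with a standard error (SE) of 0.11, and edgeR gave an adjusted p of 0.0447. This call held without control replicate 1 (adjusted p = 0.0342) and without DKO replicate 2 (0.0414), and was lost without any 1 of the other 7 libraries (adjusted p = 0.0654 to 0.128, edgeR).

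Klrc1 (ENSMUSG00000030167.15, minus strand, 129666015 to 129678973), which encodes NKG2A, was at 1281, 1209, 1104 and 1144 CPM in the control libraries and at 1128, 1293, 1105, 1191 and 1096 CPM in the DKO libraries. The groups overlapped almost completely. Its DKO level was 0.98 times control, with a 95% interval of 0.87 to 1.10 (-0.03 on the log2 scale, SE 0.08; adjusted p = 0.896 in edgeR). The sign of this small value turned positive (0.0018) with 1 surrogate variable in the model.

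Klrc2 (ENSMUSG00000052736.15, 129647496 to 129660689), the activating partner NKG2C, was at 49.2, 32.1, 36.3 and 29.8 CPM in control and 28.1, 34.5, 27.4, 32.1 and 23.8 CPM in DKO. Control replicate 1 stood highest and the groups overlapped (-0.34 on the log2 scale, SE 0.16; adjusted p = 0.319 in edgeR). Without control replicate 1 the value was -0.18, and in limma-voom -0.19. Klrc3 (ENSMUSG00000033027.15, 129639064 to 129643337), which encodes NKG2E, was near the lower end of detection, at 1.38, 2.37, 2.37 and 1.23 CPM in control and 1.80, 1.51, 1.35, 2.14 and 1.16 CPM in DKO. It had 55 to 135 counts a library, and its 95% interval ran from 0.57 to 1.31 times control (adjusted p = 0.761, edgeR). Its log2 change of -0.20 was between -0.35 and -0.05 with 1 library left out, nearest to 0 without control replicate 2 or 3. Klrc1 made up 96.2 to 97.4% of the counts of the 3 Klrc genes in control and 97.2 to 97.8% in DKO, ranges that overlapped.

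These paralogs share sequence, which limits how reads can be assigned. Of the distinct 50-base words in Klrc1 transcripts of GENCODE M21, 38.6% also occur in transcripts of another gene, mostly Klrc2, and of 100-base words 14.6% do. For Klrc2 the shares were 16.3% and 7.09%, and for Klrc3 36.3% and 16.05%. STAR counts uniquely mapped reads in this layout, so reads from such stretches are lost or uncertain, and the split among the Klrc genes should be read with that limit. Klrd1, Klrk1 and Klrg1 shared no word of either length with another gene.

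With Klrd1 lower and Klrc1 near its control level, the ratio of the 2 transcripts differed between the groups. Klrc1 was at 1.11 to 1.33 times Klrd1 in control and 1.56 to 1.89 times in DKO, in CPM per kilobase of merged exons. These ranges did not overlap. Klrd1 itself did not overlap between the groups, so the ratio of a steady gene to it can separate them through Klrd1 alone. The share of all genes whose ratio to Klrd1 separates the groups was not computed. Which transcript is the higher in control depends on the length: per kilobase of the longest coding transcript, a setting added after seeing the data, the ratio was 0.798 to 0.956 in control and 1.121 to 1.36 in DKO, again without overlap. The ratio of Klrk1 to Klrd1 also separated the groups, at 0.443 to 0.538 in control and 0.556 to 0.669 in DKO, whereas that of Klre1 to Klrd1 overlapped (0.0933 to 0.101 and 0.0755 to 0.114), all per kilobase of merged exons. No test of the ratios was made, since the genes were picked with their changes known.

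**Figure D2:**
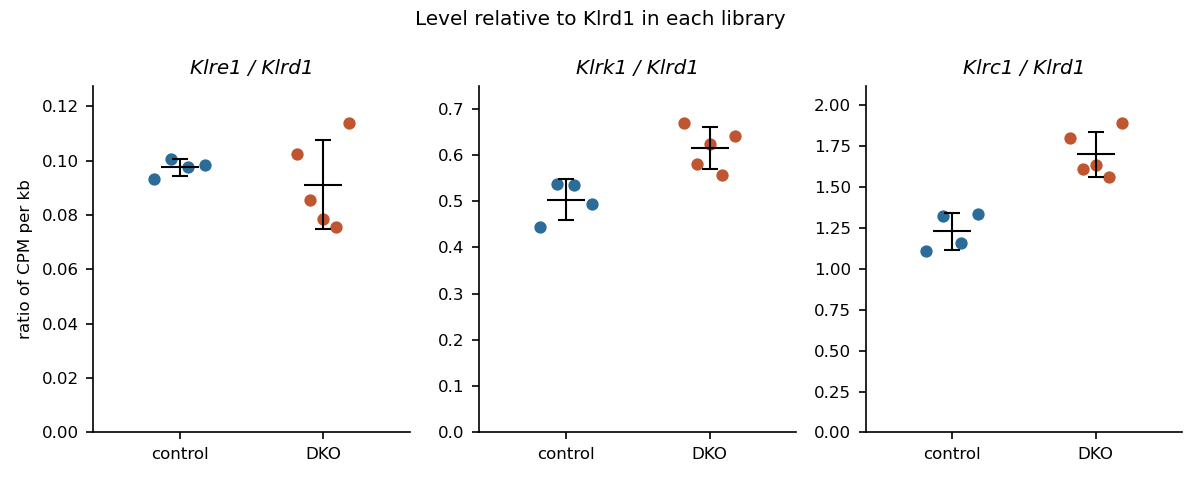
Ratio of the CPM per kilobase of merged exons of Klre1, Klrk1 and Klrc1 to that of Klrd1 (vertical axes from 0) in each control (blue, n = 4) and DKO (orange, n = 5) library, with mean and SD in black. The Klrc1 ratio is 1.23 ± 0.113 in control and 1.70 ± 0.139 in DKO, and the Klre1 ratio overlaps, while by the longest coding transcript the Klrc1 ratio is 0.883 in control and 1.22 in DKO.

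Klre1 (ENSMUSG00000050241.8, plus strand, 129577905 to 129585827) had the largest decrease of the members. It encodes a chain that pairs with the products of Klri1 or Klri2, and it starts at -13.9 kb from the start of Klrd1 on the same strand. It was at 189, 162, 164 and 149 CPM in control and 113, 121, 93.2, 101 and 116 CPM in DKO. All 5 DKO libraries were below all 4 control libraries, and the DKO level was 0.66 times control (95% interval 0.56 to 0.76). On the log2 scale this was -0.61 with an SE of 0.10, at an adjusted p of 0.00937 in edgeR, and the call held without any 1 library (adjusted p = 0.00455 to 0.0312). Of its known partners, Klri1 had 0 counts in control and 3 counts in DKO, all libraries summed, and Klri2 was at 1.37 ± 1.34 against 0.867 ± 0.151 CPM, with control libraries from 0.0221 to 3.22 CPM.

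Klrk1 (ENSMUSG00000030149.15, minus strand, 129610323 to 129623864), which encodes NKG2D, had the highest CPM of the 10 genes. It was at 1849, 1780.2, 1851 and 1537 CPM in control and 1517, 1691, 1523, 1535 and 1344 CPM in DKO. Control replicate 4 fell within the DKO range, so the groups overlapped, and the change did not pass the threshold (0.87 times control, 95% interval 0.76 to 0.99, adjusted p = 0.263, edgeR). Of its ligand genes, H60b was at 1.47 ± 0.406 against 1.03 ± 0.0664 CPM, and Ulbp1, which encodes MULT1, at 6.27 ± 2.57 against 11.3 ± 2.11 CPM. Ulbp1 did not pass in edgeR (adjusted p = 0.101) but did in DESeq2 (0.0130), in limma-voom (0.0305), with 1 surrogate variable (0.0418) and, in edgeR, without control replicate 3 (0.0246), its highest control library.

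Klrg1 (ENSMUSG00000030114.8, minus strand, 122270596 to 122282882), which lies outside the NK gene complex, was at 750.1, 661, 624 and 639 CPM in control and 491, 526, 501, 611 and 599 CPM in DKO. The groups did not overlap, with the lowest control library at 624 and the highest DKO library at 611 CPM. The DKO level was 0.82 times control (95% interval 0.71 to 0.94; -0.29 on the log2 scale, SE 0.09), which did not pass in edgeR (adjusted p = 0.125). It passed narrowly in DESeq2 (0.0444), in limma-voom (0.0324) and with 1 surrogate variable (0.0495). Of all genes tested, 8.71% had CPM that did not overlap between the groups, 4.09% lower and 4.62% higher in DKO. Among the members 4 of 10 did: Klrd1, Klre1 and Klrg1 lower, and Klra9 higher.

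Klrb1c (ENSMUSG00000030325.16, minus strand, 128778485 to 128789215), which encodes the NK1.1 antigen, an activating receptor, was at 57.4, 78.5, 69.7 and 86.0 CPM in control and 47.5, 64.2, 59.3, 72.3 and 63.97 CPM in DKO. Control replicate 1 was here the lowest control library, unlike for Klrd1. The groups overlapped, at 0.84 times control (95% interval 0.68 to 1.04, adjusted p = 0.416, edgeR). Its log2 change of -0.25 was -0.16 without control replicate 4 and -0.41 in limma-voom. Some of its reads are hard to place, since 17.0% of its 50-base words and 10.8% of its 100-base words occur in another gene's transcripts.

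The members of the Ly49 family, whose products bind MHC class I molecules, were near the lower end of detection and were the only 2 members with a positive fold change in these libraries. Klra9 (ENSMUSG00000033024.16, minus strand, 130178675 to 130193112), encoding the inhibitory receptor Ly49I, was at 2.89, 2.54, 2.50 and 2.71 CPM in control and 3.32, 3.69, 3.11, 2.94 and 4.38 CPM in DKO. The groups did not overlap, but the change missed the threshold (0.39 on the log2 scale, SE 0.17; adjusted p = 0.279 in edgeR). Klra7 (ENSMUSG00000067599.13, minus strand, 130218605 to 130233322), encoding the inhibitory receptor Ly49G2, was at 1.82, 1.10, 1.66 and 1.25 CPM in control and 2.08, 1.56, 2.21, 1.54 and 3.66 CPM in DKO. DKO replicate 5 was the highest for both genes, and the groups overlapped for Klra7 (0.60 on the log2 scale, SE 0.29; adjusted p = 0.344 in edgeR). Over the 9 fits that each left out 1 library, the log2 change of Klra7 lay between 0.34 and 0.71, with the lowest value without DKO replicate 5, and that of Klra9 between 0.29 and 0.45. Counts were 63 to 173 a library for Klra7 and 113 to 218 for Klra9. Of the 50-base words of Klra7 and Klra9, 12.3% and 31.5% occur in another gene's transcripts, and of the 100-base words 1.825% and 4.07%. Both values are therefore uncertain.

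**Figure D3:**
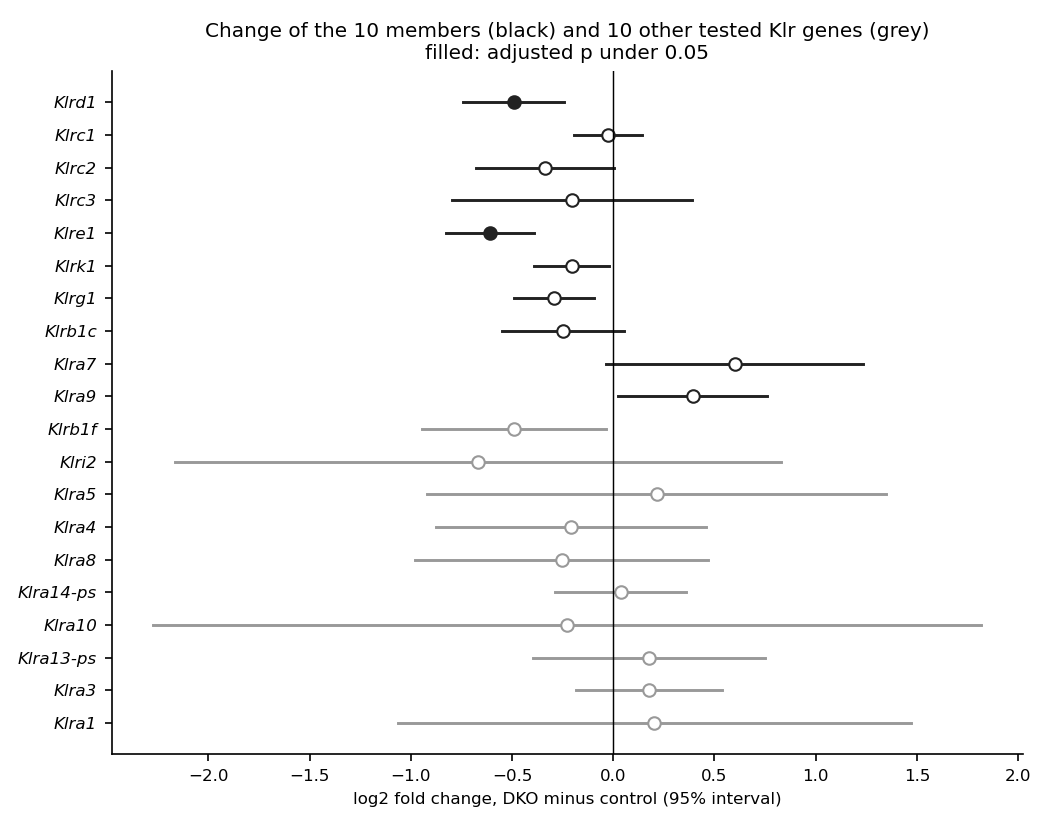
Log2 fold change (DKO minus control, horizontal axis) with its 95% interval for the 10 members (black) and the 10 other Klr genes tested (grey), with filled points for an adjusted p under 0.05 in edgeR. Klrd1 at -0.49 and Klre1 at -0.61 are filled. The intervals of the other Klr genes differ in width, as between Klra14-ps (-0.29 to 0.36) and Klri2 (-2.16 to 0.83).

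Levels between genes were compared per kilobase of merged exons. In control, Klrc1 was highest at 597 ± 39.0 CPM per kb, followed by Klrd1 at 489 ± 64.3 and Klrg1 at 473 ± 40.0, and neither step of this order exceeded the spread of the libraries. Klrk1 followed at 244 ± 20.7, Klre1 at 47.6 ± 4.80, Klrb1c at 24.6 ± 4.14 and Klrc2 at 6.34 ± 1.49 CPM per kb, each clear of its neighbours. Klrc3 (2.50 ± 0.835) and Klra9 (2.08 ± 0.139) overlapped, and Klra7 was lowest (1.15 ± 0.265 CPM per kb). In DKO, Klrc1 (586 ± 41.4 CPM per kb) was clear of the next genes, and Klrg1 (386 ± 39.6) and Klrd1 (348 ± 46.9) overlapped. The length used decides the order at the top. Per kilobase of the longest coding transcript, a setting added after seeing the data, Klrd1 led in control at 682 CPM per kb, before Klrc1 at 597, Klrk1 at 549 and Klrg1 at 473. By that length Klrc1 led in DKO (586), before Klrd1 (484), Klrk1 (476) and Klrg1 (386 CPM per kb). The order of the other 6 members was the same by both lengths, but Klre1 came to 128 and Klrc2 to 13.1 CPM per kb in control.

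Of the other 20 Klr genes, 10 passed the filter, 6 averaged over 1 CPM, and Klrb1a had no count in any library. The highest was Klra3, a Ly49 gene, at 13.6 ± 2.90 against 15.4 ± 2.63 CPM. In edgeR 0 of the 10 passed the threshold, 1 had an unadjusted p under 0.05 (Klrb1f, 6.73 ± 2.10 against 4.79 ± 0.586 CPM, adjusted p = 0.274), and 0 passed in DESeq2 or limma-voom. Their log2 fold changes had a median of -0.09.

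The members' positions were compared with the rest of the NK gene complex, taken from the first to the last Klr gene of the cluster (chromosome 6, 128609227 to 131247362, GRCm38). It holds 92 genes that are no Klr gene, of which 14 were tested. Of these 14, 1 fell and 0 rose: 2310001H17Rik (129208412 to 129238725), a gene at -353 kb from the start of Klrd1, fell by 0.56 on the log2 scale (SE 0.13; adjusted p = 0.0390 in edgeR), with 37.3 ± 6.37 against 25.3 ± 2.98 CPM. Leaving out any 1 of 6 libraries (control replicate 2 or 4, or DKO replicate 1, 2, 3 or 5) ended that call, at adjusted p = 0.0519 to 0.112. Without control replicate 3, a second neighbour, BC035044, passed upward (0.0453). Cd69, an early activation antigen, was at 44.5 ± 4.06 against 49.6 ± 2.84 CPM. The median log2 fold change of the 14 was 0.02, with 6 below 0. Within the segment from Klre1 to Klrc1 every tested gene is a member. There the 2 plus-strand genes had log2 fold changes of -0.61 (Klre1) and -0.49 (Klrd1), and the 4 minus-strand genes lay between -0.34 (Klrc2) and -0.03 (Klrc1).

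**Figure D4:**
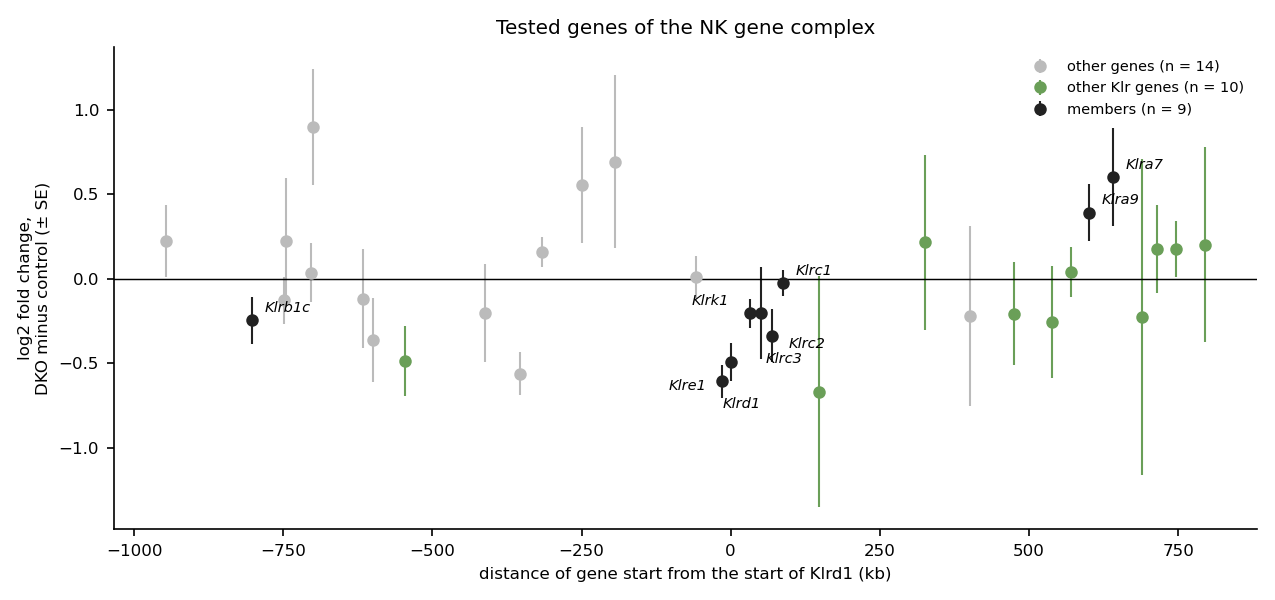
Log2 fold change (DKO minus control, ± SE) of the tested genes of the NK gene complex against the distance of their start from that of Klrd1, in kb. Members (black, n = 9) near 0 kb lie below the line, from Klre1 at -0.61 to Klrc1 at -0.03, while the other genes (grey, n = 14) and the other Klr genes (green, n = 10) lie on both sides of it.

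The signalling partners of these receptors were read from the same fit. Hcst, the adaptor DAP10 of NKG2D, was at 241 ± 57.4 against 199 ± 14.2 CPM. Tyrobp, the adaptor DAP12 of activating NKG2C and Ly49 receptors, was at 3.19 ± 0.629 against 2.40 ± 0.294 CPM, and Fcer1g at 1.74 ± 0.727 against 1.63 ± 0.655 CPM. The kinase gene Lck averaged 2751 against 2808 CPM. In edgeR 0 of the 10 adaptor and kinase genes passed the threshold, with a median log2 fold change of -0.03, 5 of 10 below 0 and 2 unadjusted p under 0.05, and 0 passed in DESeq2 or limma-voom. Of the 4 phosphatase genes, 0 passed in edgeR, DESeq2 or limma-voom, and 1 had an unadjusted p under 0.05 in edgeR. That gene was Ptpn6, which encodes SHP-1, the phosphatase recruited by inhibitory receptors. It was at 822 ± 25.5 against 934 ± 69.5 CPM, without overlap (adjusted p = 0.245, edgeR), and the strand columns summed to 1.27 times its unstranded count, so some of its reads overlap another gene. The 4 log2 fold changes were all above 0, with a median of 0.18.

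Ligand genes were also transcribed by these T cells. H2-T23, the Qa-1 heavy chain bound by CD94 pairs, was at 594 ± 33.1 against 540.3 ± 33.1 CPM, and the classical class I genes H2-D1 and H2-K1 at 8067 and 7472 CPM and at 6057 and 5528 CPM. In edgeR 0 of the 9 ligand genes tested passed, 3 had an unadjusted p under 0.05, and 1 (Ulbp1, above) passed in DESeq2 and in limma-voom. Their median log2 fold change was -0.13, with 6 of 9 below 0. Of the 20 names on that list, 16 were found in the annotation, and the genes of the other 4 are not analysed here.

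Genes that are usually high in KLRG1-high effector cells, and those usually high in memory precursor cells, were read beside Klrg1. In edgeR 0 of the 9 KLRG1-high genes passed, with 5 unadjusted p under 0.05 and a median log2 fold change of -0.28. In limma-voom 2 passed and in DESeq2 0. The 2 were Cx3cr1, a chemokine receptor gene (811 ± 174 and 621 ± 28.6 CPM, adjusted p = 0.163 in edgeR and 0.00227 in limma-voom), and Itgax (494 ± 131 and 408 ± 28.3 CPM, 0.439 and 0.0224). Without control replicate 1, the lowest control library for both genes, these 2 also passed downward in edgeR (0.000668 and 0.00462). The granzyme gene Gzma was at 3543 ± 694 and 2751 ± 337 CPM, and Id2, a regulator of effector differentiation, at 2593 ± 435 and 2029 ± 243 CPM. Tbx21, which encodes the effector transcription factor T-bet and is the third highest of the list, lay higher in DKO (1107 ± 113 and 1293 ± 111 CPM, adjusted p = 0.253, edgeR). Of the 9 log2 fold changes, 5 were below 0 and 4 above (Tbx21, Prdm1, S1pr5 and Zeb2). Of the 9 memory precursor genes, 1 fell and 0 rose: Eomes, a T-box transcription factor gene, was at 72.0 ± 11.3 against 51.5 ± 5.12 CPM, a fall by 0.48 on the log2 scale (SE 0.12; adjusted p = 0.0497 in edgeR). This call held without control replicate 1 (adjusted p = 0.00760) and was lost without any 1 of the other 8 libraries (0.0543 to 0.142). Without control replicate 1, Id3 and Cd27 passed upward as well in edgeR (0.0211 and 0.0497). With all libraries, Id3 passed upward in DESeq2 (0.0111), in limma-voom (0.00974) and with 1 surrogate variable (0.011). Cd27 did so in limma-voom (0.0192) and with the surrogate variable (0.0274). Id3 was at 7.26 ± 1.99 against 11.2 ± 1.17 CPM, without overlap (adjusted p = 0.0963, edgeR). The strand columns of Eomes summed to 1.15 times its unstranded count. Cxcr3, a chemokine receptor gene and the highest of this list, was at 361 ± 44.0 against 373 ± 16.02 CPM. The median of the 9 was 0.05, with 3 below 0.

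The genes whose pattern over the 9 libraries was most like that of Klrd1 were sought among 8173 genes with a mean of at least 10 CPM, by the root mean square difference of log2 CPM after each gene was centred on its mean. The nearest 5 were Slfn1 (0.0858), Ms4a6b (0.0935), Ms4a4b (0.103), Ublcp1 (0.104) and 4930522L14Rik (0.105 log2 units). Of these, Slfn1 averaged 201 against 139 CPM. Among the other members, Klrc2 came nearest to Klrd1, as the gene of rank 21 (0.123), and Klrc1, which makes the other chain of the inhibitory pair, had rank 1342 (0.256). The 5 genes nearest to Klrg1 were Hars (0.0569), Mtx2 (0.0607), Usp14 (0.0681), Cutc (0.0686) and Mbip (0.0723 log2 units), and the nearest member was Klrk1, at rank 1316 (0.175).

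**Figure D5:**
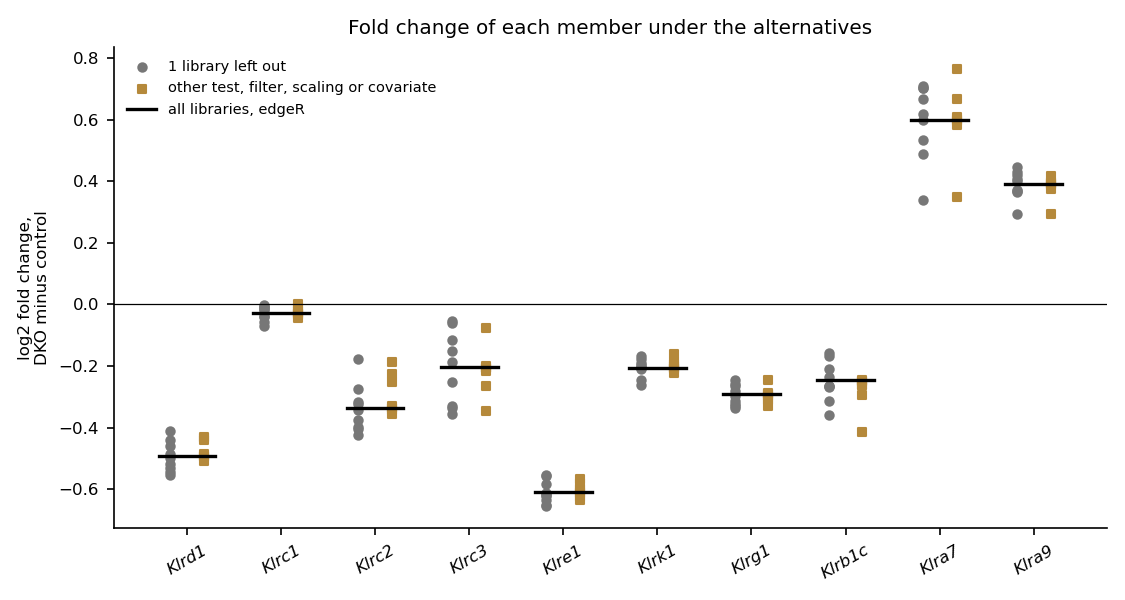
Log2 fold change (DKO minus control) of each member with all libraries in edgeR (black line), with 1 library left out (grey) and under another test, filter, scaling, strand choice or covariate (squares). Klre1 spans -0.66 to -0.55, Klrd1 -0.55 to -0.41, and Klrc1 lies near 0, from -0.07 to 0.0018.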

How the data were processed

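The authors deposited counts per gene, 1 table for each library, as STAR writes them. The submitters' processing notes name Trim Galore 0.6.0, STAR 2.7.8a and the genome mm10, and the annotation release is not given in the sources used here. RNA was made into libraries with Takara SMART-Seq v4 and Nextera Flex, per the labels' protocols. The unstranded count was used, since the first strand column held 49.9 to 50.1% of stranded counts. Rows without a gene were dropped: unmapped reads (10.3 to 16.7% of a library), multimapping (5.80 to 6.79%), in no feature (4.01 to 5.20%) and ambiguous (4.97 to 5.31%). Symbols and coordinates came from GENCODE M21 (GRCm38) for 55230 of 55471 identifiers. For each member the strand columns summed to at most 1.0003 times the unstranded count.

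Tests across all genes ran in R 4.3.3, with edgeR 4.0.16 as the main tool (robust quasi-likelihood test, TMM scaling, filterByExpr with a minimum count of 10), with Benjamini-Hochberg adjustment over 14918 genes. CPM used TMM-scaled library sizes, and log2 CPM a prior count of 2. Intervals are 95% intervals of the edgeR fit. Libraries carry no molecular identifiers, so counts are not independent molecules. No 2 libraries of a group were alike within counting noise (chi-square per degree of freedom at least 9.70). The fits were tested on simulated data. Alternatives used DESeq2 1.42.0, limma 3.58.1, sva 3.50.0, other filters (none, or 1 CPM in at least 4 libraries), the strand columns summed, the replicate number as a block, and leaving out each library. Named were the members, both targeted genes, genes of fixed lists past the threshold, up to 4 of the highest genes of a list, and the 5 genes most like Klrd1 and Klrg1. Further genes named beside a member (Klri1, Klri2, Klra8, Hcst, Tyrobp, H60b, Ulbp1, Fcer1g, Ptpn6, Klrb1f, Itgax, Prdm1, S1pr5, Zeb2, Itgam, Lyz2, Id3, Cd27, BC035044 and Cd69) were chosen after their values were seen. The members and lists were chosen with earlier results of these data known. Promoters are from RefSeq (GRCm38.p6), compared with Python 3.11.15 and biopython 1.88.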

Additional observations from a re-analysis of the deposited data

Results flagged for a closer look

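Of 34 groups checked for a library far from the rest (10 members, Eomes, 2310001H17Rik, Cd8b1, Cd68, Ctss, Ulbp1 and the Klrc1 share, in both genotypes), 3 held such a library, and chance alone picks out about 5% of groups. The neighbouring gene 2310001H17Rik stood at 30.52 CPM in DKO replicate 4, above the other DKO libraries at 23.1 to 24.5 CPM. Without that library its log2 fold change was -0.64 (adjusted p = 0.0349, edgeR). The myeloid marker Ctss stood at 93.48 CPM in control replicate 1, above the other control libraries at 76.3 to 77.5 CPM, and without it fell by 0.60 on the log2 scale (adjusted p = 0.00382, edgeR). The ligand gene Ulbp1 stood at 14.96 CPM in DKO replicate 5, above the other DKO libraries at 9.61 to 11.1 CPM, and without it the log2 fold change was 0.73 (adjusted p = 0.211, edgeR).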

How the results depend on the processing

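The number of genes past the threshold was 422 in edgeR, 1059 in DESeq2, 996 in limma-voom and 1148 with 1 surrogate variable. It ranged from 179 to 749 over the fits that each left out 1 library. Members past the threshold numbered 2, with 1 to 2 over those fits and 2 or 3 over the 7 other alternatives besides the block. Klre1 was among them in each of these 16 fits, and Klrd1 in 9. With the replicate number as a block (replicate block), 67 genes and 0 members passed (Klre1 adjusted p = 0.0621, Klrd1 0.269), and 0 memory precursor genes and 0 neighbours did. The last DKO replicate number has no control library, so that DKO library adds nothing to the contrast in this fit. The block also leaves fewer residual degrees of freedom. The labels do not say that numbers mark shared animals, and same-numbered libraries did not deviate together (correlations -0.12 to 0.01 over 4 pairs), so no pairing was taken. With 1 surrogate variable the log2 fold change of Klrc1 was 0.0018, and no other member changed sign in any fit.

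The ligand list, with 0 genes past the threshold, had 1 in DESeq2, in limma-voom and with the surrogate variable, and 0 to 1 with a library left out. The KLRG1-high list, with 0, had 2 in limma-voom and with the surrogate variable, and 0 to 2. The memory precursor list, with 1, had 0 with DESeq2 size factors, 0 with no filter, 2 in DESeq2, 3 in limma-voom and with the surrogate variable, and 0 to 3. The neighbours, with 1, had 0 to 2 with a library left out. The causes were not tested. The mean Klrc1 share was 96.9% in control and 97.4% in DKO and each moved by less than 1 SD of its own group with a library left out or the strand columns summed. Depth limits Klrc3, Klra7 and Klra9, with 55 to 218 counts a library.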

Other observations

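Cdh4, which encodes the R-cadherin that KLRG1 can bind, was at 42.0 CPM in control replicate 2, at 0.0221 CPM in control replicate 3 and at 0 in the other 7 libraries. It was below the count filter and was chosen after its values were seen. Trdc, the constant region gene of the delta T cell receptor chain, which lies within the alpha chain locus, led the innate-like marker list at 364 ± 72.1 against 409 ± 20.3 CPM (control against DKO, SD over 4 and 5 libraries). The strand columns summed to 1.31 times its unstranded count, so part of its reads overlap another gene. Trdc passed upward in edgeR only without control replicate 1 (adjusted p = 0.0145) among the fits that left out 1 library. With all libraries it passed in limma-voom (0.0164) and with 1 surrogate variable (0.0169), but not in the main edgeR fit (adjusted p = 0.510).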
